A study of Homo sapiens with 4 samples.

Results

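The deubiquitinase gene USP1 was followed together with the genes of its cofactors, its substrates and the enzymes that place the ubiquitin which USP1 takes off. The set holds 10 of the 60612 genes in the count table, chosen by name: USP1, WDR48, ATAD5, PCNA, RAD18, FANCD2, FANCI, FANCL, UBE2T and RAD51AP1. All 10 passed the filter on low counts, among 17537 genes that did. RNA sequencing gave 4 libraries from the cell line IMR-32, which grew from a human neuroblastoma and carries extra copies of MYCN. The shControl group (2 libraries) carried a doxycycline-inducible control hairpin and the shNeuroD1 group (2 libraries) an inducible hairpin against NeuroD1, a neurogenic basic helix-loop-helix transcription factor. Both groups received doxycycline at 1 µg/mL for 48 h. One field of the labels gives the control cells as WT, and no label gives which NeuroD1 hairpin was sequenced. The titles number the libraries of a group, which was read here as the replicate number. Hairpins of the study carry the same numbers, so from the labels alone the shNeuroD1 libraries could hold different hairpins, although the study's own column names give both as replicates of a single hairpin. The labels also do not say whether both libraries of a group came from their own culture, so that p-values measure only the spread between these libraries, which may be technical.

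USP1 cuts single ubiquitin molecules from proteins that work at damaged or stalled DNA. It has little activity alone and is switched on by WDR48 (also called UAF1), a WD-repeat protein that binds it. PCNA is the ring that slides along DNA and holds polymerases to it, and at a stalled fork RAD18 attaches ubiquitin to PCNA, which recruits polymerases that copy past lesions. ATAD5 brings the USP1-WDR48 pair to PCNA and also unloads the ring from DNA. In the Fanconi anaemia pathway of crosslink repair, FANCL with the conjugating enzyme UBE2T attaches ubiquitin to FANCD2 and FANCI, and USP1 removes it. RAD51AP1 binds WDR48 and helps DNA strands to pair in homologous recombination. Transcripts were counted here, and ubiquitin was not measured.

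The promoters of these genes were read first, because USP1 was examined in the study as a gene under the control of NeuroD1, whose family binds E-boxes (CANNTG). RefSeq promoters on GRCh38.p14 were found for 8 of the 10 genes, with 11 starts between them, and ATAD5 and FANCI were not in the table. The 250 bases before 3 of these starts are shown 5′ to 3′: USP1 itself, its substrate PCNA, which also fell by more than 1 on the log2 scale, and its cofactor WDR48, which changed least. The starts shown are those nearest to the transcript starts with the highest FPKM of each gene. Capitals mark E-boxes, CCAAT boxes and matches to 1 E2F motif (TTTCCCGC, in the PCNA promoter on the reverse strand).
USP1, chr1:62436799-62437048, plus strand: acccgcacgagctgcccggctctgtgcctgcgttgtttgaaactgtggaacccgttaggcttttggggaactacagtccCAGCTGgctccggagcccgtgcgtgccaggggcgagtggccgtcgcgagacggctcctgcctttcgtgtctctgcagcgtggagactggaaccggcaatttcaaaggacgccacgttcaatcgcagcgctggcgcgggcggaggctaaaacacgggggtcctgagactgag
PCNA, chr20:5126623-5126872, minus strand: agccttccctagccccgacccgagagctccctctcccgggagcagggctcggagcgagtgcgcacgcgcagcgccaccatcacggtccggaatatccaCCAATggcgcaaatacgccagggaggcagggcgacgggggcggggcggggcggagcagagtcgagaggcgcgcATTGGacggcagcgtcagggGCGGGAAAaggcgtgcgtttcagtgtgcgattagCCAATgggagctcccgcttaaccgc
WDR48, chr3:39051766-39052015, plus strand: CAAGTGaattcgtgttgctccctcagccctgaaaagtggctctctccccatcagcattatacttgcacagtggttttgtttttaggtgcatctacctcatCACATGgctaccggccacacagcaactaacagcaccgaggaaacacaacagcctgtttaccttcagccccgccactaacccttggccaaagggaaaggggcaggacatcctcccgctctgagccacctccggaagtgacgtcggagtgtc

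The 250-base USP1 window held 1 E-box, cagctg, from 171 to 166 bases before the start. Bases outside the windows were not searched, so that a promoter defined more widely can hold further matches. The study also examined NeuroD1 at the USP1 promoter by ChIP and by reporter assays, which a count of letters neither repeats nor replaces. CAGCTG and CAGATG are the forms read by neurogenic factors in textbooks. The same letters stood 92 to 87 bases before the FANCD2 start and 134 to 129 bases before the second WDR48 start, which lies at 39052292. Any E-box was found in 8 of the 11 promoters of these genes, against 61.8% of 35116 RefSeq promoters cut to the same length. CAGCTG or CAGATG was found in 3 of 11, against 24.3%. CACGTG, the form read by MYC and MAX, was found in 0 of 11, against 6.34%, which says only that these letters are not in these windows.

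Motifs of cell-cycle promoters were counted in the same windows. A CCAAT box, bound by NF-Y, was found on either strand in 5 of 11 promoters, against 32% of all. The PCNA promoter held 3, and the upstream USP1 promoter (start at 62436395) held 1 at 226 to 222 bases before its start. E2F motifs (TTTCCCGC, TTTGGCGC or TTTCGCGC, both strands) were found in 1 of 11, the PCNA promoter at 59 to 52 bases before the start, against 2.32%. The letters of the CHR element of cell-cycle promoters (TTTGAA or TTCGAA, both strands) were found in 2 of 11, USP1 and UBE2T, against 14.3%. In UBE2T the match overlapped the E-box catttg. A match is a match of letters, and binding was not measured here.

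**Figure D1:**
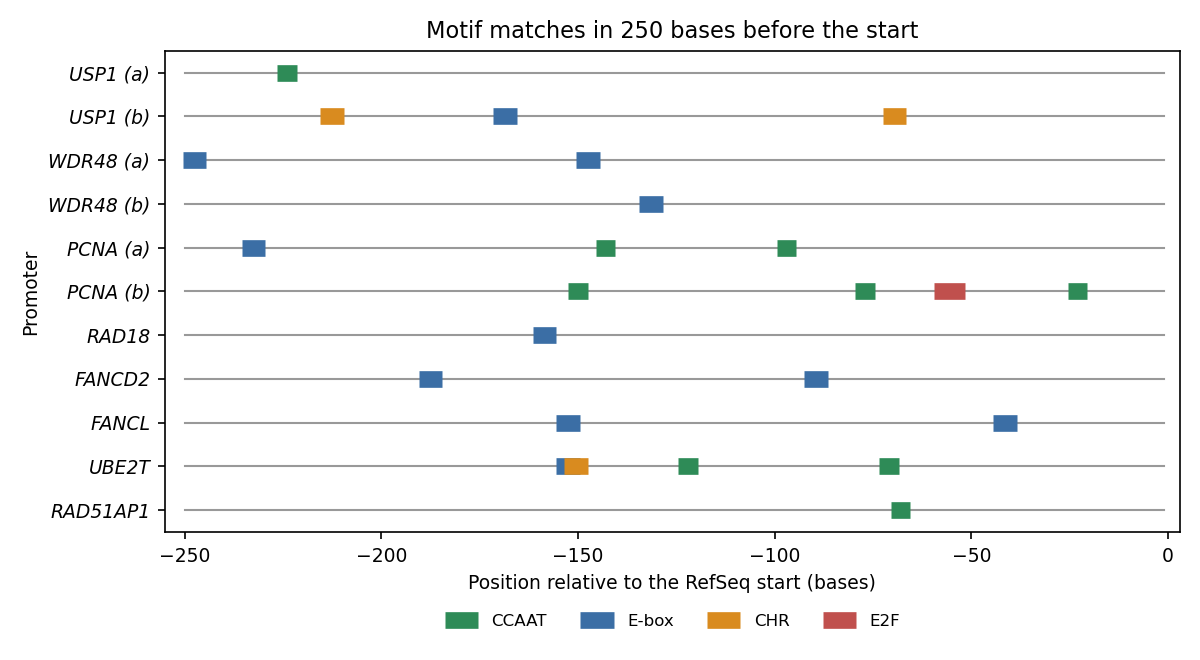
Motif matches in the 250 bases before each of 11 RefSeq starts of 8 genes, with the position relative to the start in bases on the horizontal axis and 1 line per promoter. Genes with 2 starts are given as (a) and (b) in order of coordinate, coloured blocks are matches on either strand, and the USP1 start that carries nearly all USP1 signal is (b), with 1 E-box 171 to 166 bases before it.

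The libraries were checked before the members were compared. They held 14665210 to 16482463 counts. Counts of NEUROD1, the targeted gene, were 6174 and 6582 under the control hairpin against 969 and 886 in shNeuroD1, or 14.6% of the control level (log2 fold change -2.77, edgeR adjusted p 8.6e-29). All 9 neuroblastoma markers examined had a mean of at least 1 CPM (counts scaled to a common library size). For the markers in this paragraph, CPM was scaled by the total counts of each library alone. CPM of the members and of other genes compared below also used TMM factors, so marker values are not on that scale. The noradrenaline enzymes TH and DBH had few counts. TH had 10 and 20 in shControl against 88 and 79 in shNeuroD1, and DBH had 11 to 24. Of 13 markers of other cell types, 2 reached that level (COL1A1 and PDGFRB), 8 had at most 12 counts over the 4 libraries and 3 of these were at 0. Their summed level was 43.2 to 49.1 CPM in shControl and 35.7 to 39.8 CPM in shNeuroD1, but single markers went opposite ways. COL1A1 had 513 and 591 counts in shControl against 291 and 279, and CDH5 had 18 and 17 against 1 and 0. PDGFRB had 129 and 173 against 249 and 218, and EPCAM had 0 and 1 against 28 and 21. Their part in the results was not tested.

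Transcripts of all 10 genes fell in shNeuroD1. Genes were tested by the quasi-likelihood F test of edgeR and called at an adjusted p under 0.05, a call that 28.2% of all tested genes passed as lower. Of the 10 genes, 10 were lower and 0 were higher, a direction in which 26.8% of all genes passed. DESeq2 also called 10 of 10 lower, against 18.5% of the genes to which it gave an adjusted p. With a log2 fold change beyond 1 in size as well, 5 of 10 were lower (FANCI, PCNA, USP1, RAD51AP1 and FANCD2), against 5.14% of all genes. FANCD2 was at -0.99 when libraries were scaled by their size alone. The shControl and shNeuroD1 values did not overlap for 10 of 10, against 37.7% of all genes in that direction. The median log2 fold change was -1.02, beside 0.008 for all genes tested, and the summed level went from 1552 to 1578 CPM in shControl to 722 to 741 CPM in shNeuroD1. In bulk libraries, fewer cells that express a gene and less RNA per cell cannot be told apart.

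**Figure D2:**
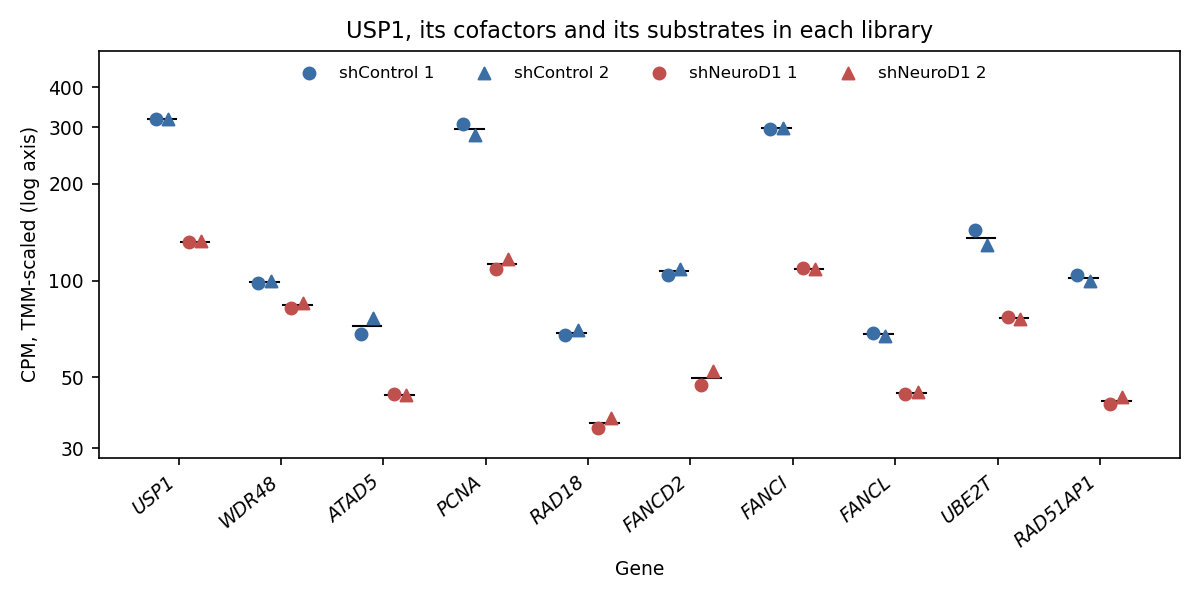
CPM of each of the 10 genes in each library, on a log axis, with genes on the horizontal axis. Blue points are shControl and red points shNeuroD1, circles and triangles are replicates 1 and 2, black lines are group means (n = 2), and the groups do not overlap for any of the 10 genes.

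USP1, the deubiquitinase (ENSG00000162607, chr1:62436297-62451804, plus strand), was counted 4697 and 5046 times in shControl and 2005 and 2023 times in shNeuroD1. These are 319 and 318 CPM against 132 and 133 CPM. Both shNeuroD1 libraries were far below both shControl libraries, and the values within a group lay closer together than for most other members. The level in shNeuroD1 was 41.6% of shControl (log2 fold change -1.27, SE 0.0444, edgeR adjusted p 1.8e-21). USP1 has no exon bases in common with another gene in GENCODE 29. Of all genes tested, 3.36% had a lower log2 fold change.

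WDR48, which activates USP1 (ENSG00000114742, chr3:39051998-39096671, plus strand), had 98.4 and 99.8 CPM in shControl and 82.4 and 85.0 CPM in shNeuroD1. The groups did not overlap, but the gap was small. The level in shNeuroD1 was 84.4% of shControl (log2 fold change -0.24, SE 0.0531, edgeR adjusted p 2.3e-04), and 28.5% of all genes had a lower log2 fold change. With libraries scaled by their size alone, WDR48 was at -0.13 (edgeR adjusted p 0.0352), and the median of all genes was 0.12. In limma on log2(FPKM + 1), summed over transcript starts, WDR48 stood at -0.14 and did not pass (adjusted p 0.533). The difference between the changes of USP1 and WDR48 was 1.02 on the log2 scale (combined SE 0.0692). The ratio of USP1 to WDR48 counts was 3.24 and 3.19 in shControl against 1.60 and 1.56 in shNeuroD1. A count ratio depends on the lengths of both transcripts and is no ratio of molecules, but it is free of the scaling between libraries.

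ATAD5, which brings USP1 to PCNA (ENSG00000176208, chr17:30831970-30895869, plus strand), had 68.1 and 76.3 CPM in shControl and 44.4 and 43.9 CPM in shNeuroD1. The shControl libraries differed more from each other than the shNeuroD1 libraries did, and the groups did not overlap. The level in shNeuroD1 was 61.1% of shControl (log2 fold change -0.71, SE 0.0658, edgeR adjusted p 6.2e-11). An antisense gene shares 305 exon bases with ATAD5, but it had 2 counts over the 4 libraries.

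PCNA, the sliding clamp and a substrate of USP1 (ENSG00000132646, chr20:5114953-5126626, minus strand), had 308 and 284 CPM in shControl and 109 and 117 CPM in shNeuroD1. The groups were far apart, at 38.1% of the shControl level (log2 fold change -1.39, SE 0.0496, edgeR adjusted p 2.8e-21). PCNA has 3 pseudogenes by name, PCNAP1, PCNAP3 and PCNAP4, and reads that such copies could take make its level less certain than that of USP1. The ratio of ATAD5 to PCNA counts was 0.221 and 0.269 in shControl against 0.409 and 0.375 in shNeuroD1, so it was higher in both shNeuroD1 libraries.

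RAD18, the ligase that attaches ubiquitin to PCNA (ENSG00000070950, chr3:8775402-8963773, minus strand), had 67.6 and 70.0 CPM in shControl and 34.8 and 37.4 CPM in shNeuroD1. It was at 52.5% of the shControl level (log2 fold change -0.93, SE 0.0665, edgeR adjusted p 1.5e-13). PCNA counts per RAD18 count were 4.55 and 4.06 in shControl against 3.12 and 3.13 in shNeuroD1. The substrate was thus lower relative to its ligase in both shNeuroD1 libraries.

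FANCI, one of the paired Fanconi substrates (ENSG00000140525, chr15:89243949-89317261, plus strand), had 297 and 299 CPM in shControl and 109.6 and 109 CPM in shNeuroD1. It had the lowest log2 fold change of the 10 genes in the edgeR fit, -1.45 (SE 0.0455, edgeR adjusted p 1.0e-22), and was at 36.7% of the shControl level. FANCI shares 458 exon bases on the opposite strand with POLG, which had 4183 counts over the 4 libraries. The use of strand in counting was not given in the sources used here, so that reads in the shared bases cannot be assigned to one of the pair.

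FANCD2, the partner of FANCI (ENSG00000144554, chr3:10026414-10101930, plus strand), had 104 and 109 CPM in shControl and 47.3 and 52.1 CPM in shNeuroD1. It was at 46.5% of the shControl level (log2 fold change -1.10, SE 0.0597, edgeR adjusted p 1.4e-16). FANCD2 has a pseudogene, FANCD2P2, and shares 261 exon bases with FANCD2OS, which had 18 counts. FANCI counts per FANCD2 count were 2.85 and 2.73 in shControl against 2.32 and 2.09 in shNeuroD1, with no overlap between the groups.

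UBE2T, the conjugating enzyme of the Fanconi pathway (ENSG00000077152, chr1:202331657-202341980, minus strand), had 144 and 129 CPM in shControl and 77.2 and 75.9 CPM in shNeuroD1, or 56.2% of shControl (log2 fold change -0.83, SE 0.0555, edgeR adjusted p 2.8e-14). FANCL, the ligase it works with (ENSG00000115392, chr2:58159243-58241372, minus strand), had 68.9 and 67.0 CPM in shControl and 44.2 and 44.9 CPM in shNeuroD1, or 65.6% of shControl (log2 fold change -0.61, SE 0.0628, edgeR adjusted p 7.4e-10). The groups did not overlap for either gene. FANCL shares exon bases with VRK2 on the opposite strand. UBE2T counts per FANCL count were 2.08 and 1.92 in shControl against 1.75 and 1.69 in shNeuroD1.

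RAD51AP1, which acts in strand pairing (ENSG00000111247, chr12:4538798-4560048, plus strand), had 104 and 99.5 CPM in shControl and 41.3 and 43.4 CPM in shNeuroD1. It was at 41.7% of the shControl level (log2 fold change -1.26, SE 0.0600, edgeR adjusted p 4.8e-18). RAD51AP1 has a pseudogene by name, RAD51AP1P1.

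The changes were then put in order. From the lowest log2 fold change the order was FANCI, PCNA, USP1, RAD51AP1, FANCD2, RAD18, UBE2T, ATAD5, FANCL and WDR48. Neighbours in this order lay within 2 combined SE of each other, except FANCL and WDR48, which differed by 0.36 (combined SE 0.0823). USP1 lay within 2 combined SE of PCNA (difference -0.13, combined SE 0.0666) and of RAD51AP1 (difference 0.0046, combined SE 0.0746), which does not show that they changed alike. It lay beyond 2 combined SE of the other 7 genes.

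**Figure D3:**
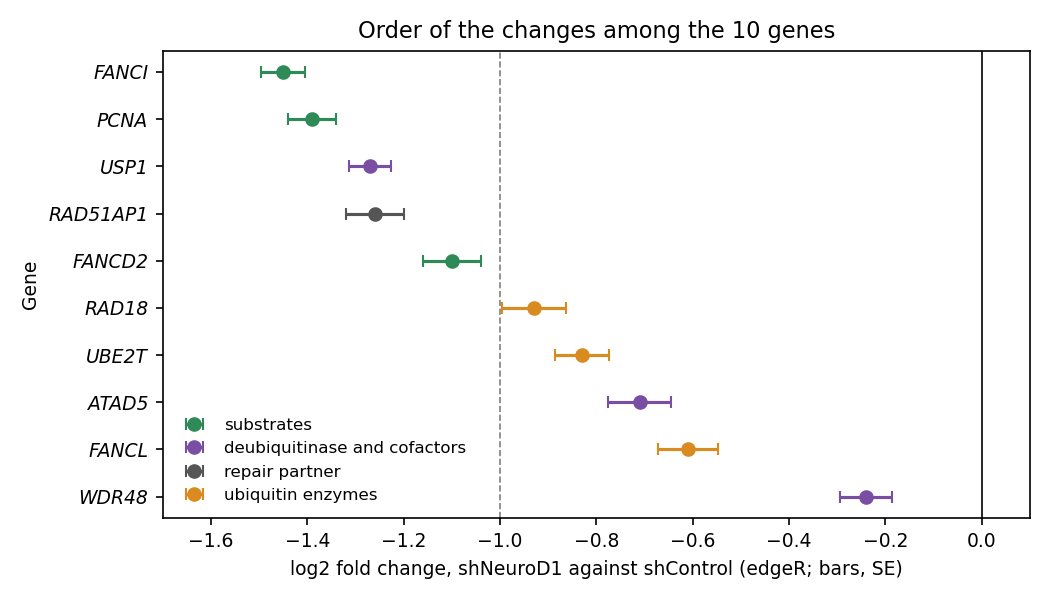
Log2 fold change of each gene, shNeuroD1 against shControl, from the edgeR fit, with 1 SE as bars and genes in the order of the change. Colours give the role, the dashed line marks -1, and WDR48 at -0.24 stands apart from the other 9 genes, which lie between -1.45 and -0.61.

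**Figure D4:**
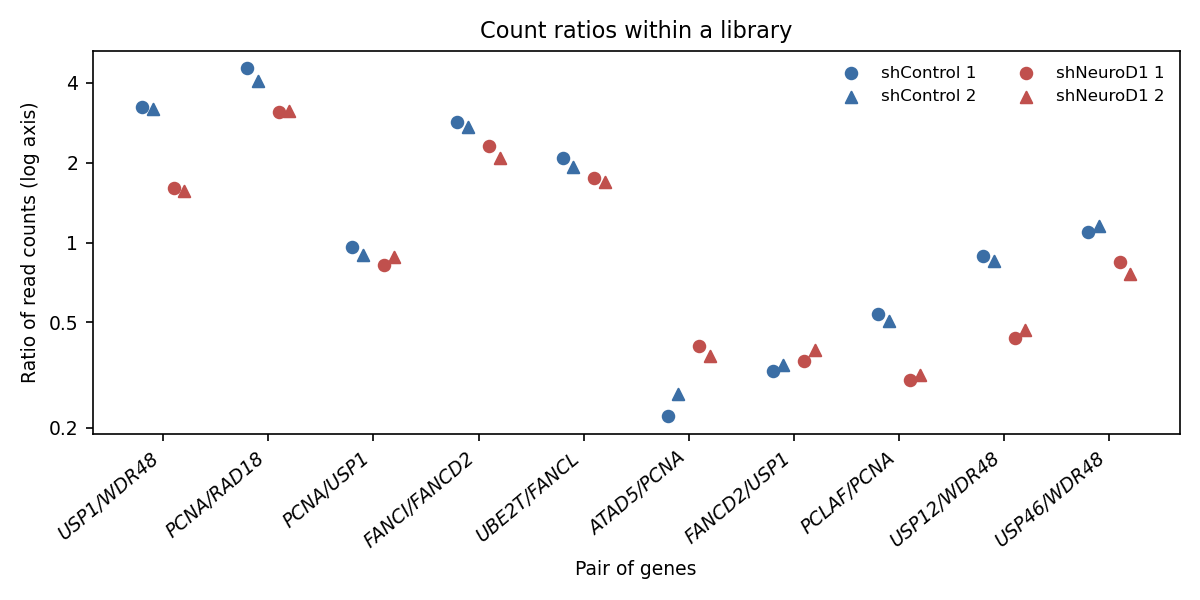
Ratio of the read counts of gene pairs within each library, on a log axis, with pairs on the horizontal axis, shControl in blue and shNeuroD1 in red. USP1/WDR48 went from 3.24 and 3.19 to 1.60 and 1.56, and PCNA/USP1 from 0.965 and 0.894 to 0.824 and 0.879.

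Levels of different genes were compared only per length, as CPM per kilobase of merged exons in GENCODE 29. PCNA was the most abundant in shControl at 201 ± 11.3 (SD, n = 2), followed by UBE2T at 82.5 ± 6.30 and USP1 at 74.6 ± 0.150. UBE2T and USP1 differed by more than their spread in shControl (78.0 and 86.9 against 74.5 and 74.8) and in shNeuroD1 (45.9 and 46.8 against 30.9 and 31.2). Below them came RAD51AP1 (38.9 and 40.5) and FANCI (38.2 and 38.5), then FANCL at 28.2 ± 0.565. WDR48 (13.1 and 13.3), FANCD2 (12.4 and 13.1), ATAD5 (10.2 ± 0.814) and RAD18 (9.85 ± 0.242) formed the low end, where the values of WDR48 and FANCD2, and of ATAD5 and RAD18, were not apart beyond their spread. On this scale USP1 was above WDR48 in both groups, at 31.0 ± 0.175 against 11.2 ± 0.247 in shNeuroD1. In shNeuroD1, FANCL moved to the fourth place at 18.5 ± 0.199. The mean of ATAD5 came above that of FANCD2 there, but their values overlapped (6.27 and 6.20 against 5.65 and 6.22). The order depended on the measure. By FPKM, described next, FANCI was above RAD51AP1 in shControl, both summed over starts (49.9 against 23.9) and over ends (28.2 against 18.8). Summed over starts, PCNA (37.0) was below UBE2T (99.1) and USP1 (54.8), and WDR48 (15.3) was above FANCD2 (7.82).

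The transcript forms of USP1 were read from FPKM values (read pairs scaled to transcript length and to sequencing depth) that the authors deposited for transcript starts and ends. The start at chr1:62437049, whose promoter is shown above, had 52.9 and 56.3 FPKM in shControl and 25.4 and 23.9 FPKM in shNeuroD1. It took 97.9% to 100% of the USP1 signal in each library. The groups were far apart, but the limma test on log2(FPKM + 1) gave a log2 fold change of -1.12 (SE 0.144) with an adjusted p of 0.121. In that fit 0% of 14382 starts passed as lower, and 1235 were lower at an unadjusted p under 0.05. An upstream start at 62436297 was listed at 0.426 FPKM in 1 shControl library and at 0.544 and 0.146 FPKM in the shNeuroD1 libraries, with different first-exon ends. These values are under 1 FPKM, and no order was read from them.

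USP1 had 1 transcript end, at chr1:62450246-62451804, with 53.3 and 56.3 FPKM in shControl and 25.8 and 23.9 FPKM in shNeuroD1. The limma test gave a log2 fold change of -1.11 (SE 0.114) and an adjusted p of 0.0495, a call that 1.38% of 7096 ends passed as lower. Leaving out any of the 4 libraries ended that call (adjusted p 0.185 to 0.208), and so did a pseudocount of 0.1 (adjusted p 0.0642). No skipped exon or retained intron of USP1 with at least 1 FPKM in each library was listed.

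The other genes were measured less evenly by FPKM. Summed over starts, 9 genes could be tested and 9 had a negative log2 fold change, from -1.50 to -0.14, with 2 of 9 passing as lower (USP1 and FANCI), against 2.43% of all genes. Summed over ends, 8 could be tested and 8 were negative, from -1.32 to -0.56, with 3 of 8 passing (USP1, PCNA and FANCI), against 2.54%. RAD18 had no listed start. The listed ends of WDR48 and FANCD2 stayed under 1 FPKM. PCNA showed how uneven these tables can be: its end had 160.3 and 148 FPKM in shControl and 61.7 and 60.8 FPKM in shNeuroD1, while its only start had 42.7 and 31.3 FPKM and 7.40 and 46.8 FPKM. RAD51AP1 had a 51-base exon (chr12:4545782-4545832) that was included in 39.8% and 32.2% of its FPKM in shControl and in 1.15% and 24.8% in shNeuroD1. It is 1 of 27 splicing events of these genes that were read, of which 6 did not overlap between the groups in either direction. The share over all splicing events was not counted, so nothing is read from that number. The shNeuroD1 libraries were far apart, the lower one rests on 0.153 FPKM of the included form, and the difference was not tested.

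A stricter test asked which genes fell by more than 2-fold rather than by more than 0. The glmTreat test of edgeR against a log2 fold change of 1 called 4 of 10 genes lower, FANCI, PCNA, USP1 and RAD51AP1, against 2.55% of all genes. The adjusted p of USP1 was 4.1e-06, and that of FANCD2 was 0.172.

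The pathways around these genes were then counted with lists written by hand, to be read beside the 28.2% of all genes that passed as lower and the 26.8% that passed as higher. In the Fanconi core complex, which carries FANCL, 9 of 12 genes were lower and 0 higher, with a median log2 fold change of -0.69. FANCA, at 43.4 and 40.7 CPM in shControl and 17.9 and 17.0 CPM in shNeuroD1 (log2 fold change -1.27), and FANCG (-1.02) passed both thresholds. FANCF (0.02), FAAP100 (-0.09) and CENPS (-0.03) did not pass. Of 13 genes that act downstream of FANCD2 and FANCI, 9 were lower and 2 higher (median -0.67), and 4 were lower past both thresholds: BRIP1 (-1.41), a helicase, BRCA1 (-1.25) and BRCA2 (-1.18), which act in homologous recombination, and EME1 (-1.17), a subunit of a structure-specific nuclease. The nuclease genes ERCC4 (0.37) and FAN1 (0.27) were higher, short of a log2 fold change of 1.

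Among genes of PCNA ubiquitination and translesion synthesis, apart from RAD18 and PCNA, 11 of 18 were lower and 1 higher, with a median of -0.19. PCLAF, a small protein that binds PCNA, was the only one of the 18 past both thresholds, at 166 and 144 CPM in shControl and 33.1 and 37.0 CPM in shNeuroD1 (log2 fold change -2.14, SE 0.0674, edgeR adjusted p 1.0e-22). Its count per PCNA count was 0.538 and 0.506 in shControl against 0.304 and 0.316 in shNeuroD1. The polymerases that copy past lesions differed. REV1 (-0.32) and the polymerase subunit MAD2L2 (-0.93) passed as lower, and REV3L (0.20) passed as higher. POLH (-0.05), POLI (-0.06) and POLK (-0.11) did not pass, nor did UBE2A (-0.14), a conjugating enzyme that works with RAD18. UBE2B (-0.21), the other such enzyme, passed as lower. With SEs of 0.0672 for UBE2A and 0.0666 for UBE2B, these enzymes were not shown to differ. Past both thresholds 1 of 18 is close to the 5.14% of all genes. Without shControl replicate 1 or without shControl replicate 2, 7 of the 18 genes were called lower, beside 18.8% and 19.7% of all genes in those fits.

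Of the 8 other clamp loader genes, which put PCNA or its relatives on DNA, 7 were lower and 0 higher (median -0.72), with RFC3 (-1.17) and RFC4 (-1.09) past both thresholds. CHTF8 (-0.06) did not pass. Of 12 genes for proteins that work on the PCNA ring, 11 were lower and 0 higher (median -0.89), with 5 past both thresholds. These were CHAF1A (-1.43) and CHAF1B (-1.13), which load histones behind the fork, DTL (-1.38), an adaptor of PCNA-dependent proteolysis, FEN1 (-1.29), a flap nuclease, and LIG1 (-1.01), the ligase of replication. CDKN1A (-0.04), an inhibitor that binds PCNA, did not pass.

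WDR48 also activates USP12 and USP46. USP12 had 87.7 and 85.3 CPM in shControl and 36.0 and 39.9 CPM in shNeuroD1, and its count per WDR48 count went from 0.891 and 0.855 to 0.437 and 0.469. USP46 was lower as well (-0.73), with 1.10 and 1.16 counts per WDR48 count in shControl and 0.847 and 0.762 in shNeuroD1. WDR20 (-0.13), the other subunit of these complexes, did not pass. USP1, USP12 and USP46, the 3 deubiquitinase genes that WDR48 serves, were lower. The study had picked USP1 and USP12 as candidates partly for their fall in its RNA data on these cells, so their fall here is no separate support.

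Genes of other proposed substrates of USP1 moved in both directions. Of 5 genes, 1 was lower and 3 were higher, with a median of 0.43. ID3, an inhibitor of basic helix-loop-helix factors, had the largest change, from 23.6 and 22.4 CPM in shControl to 43.5 and 42.4 CPM in shNeuroD1 (log2 fold change 0.90, SE 0.0799, edgeR adjusted p 2.4e-11). ID2 (0.69) and BCAT2 (0.43) were also higher and ID1 (-0.33) was lower. MYCN, whose protein the study examined as a substrate, was at 2025 and 1945 CPM in shControl and 1969 and 1979.7 CPM in shNeuroD1, values that overlapped (edgeR adjusted p 0.886). With library size alone, which moved the median of all genes to 0.12, MYCN was at 0.11 and was called higher (adjusted p 0.0139). In the lists of other genes, 0 were higher past both thresholds, a call that 8.79% of all genes passed.

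**Figure D5:**
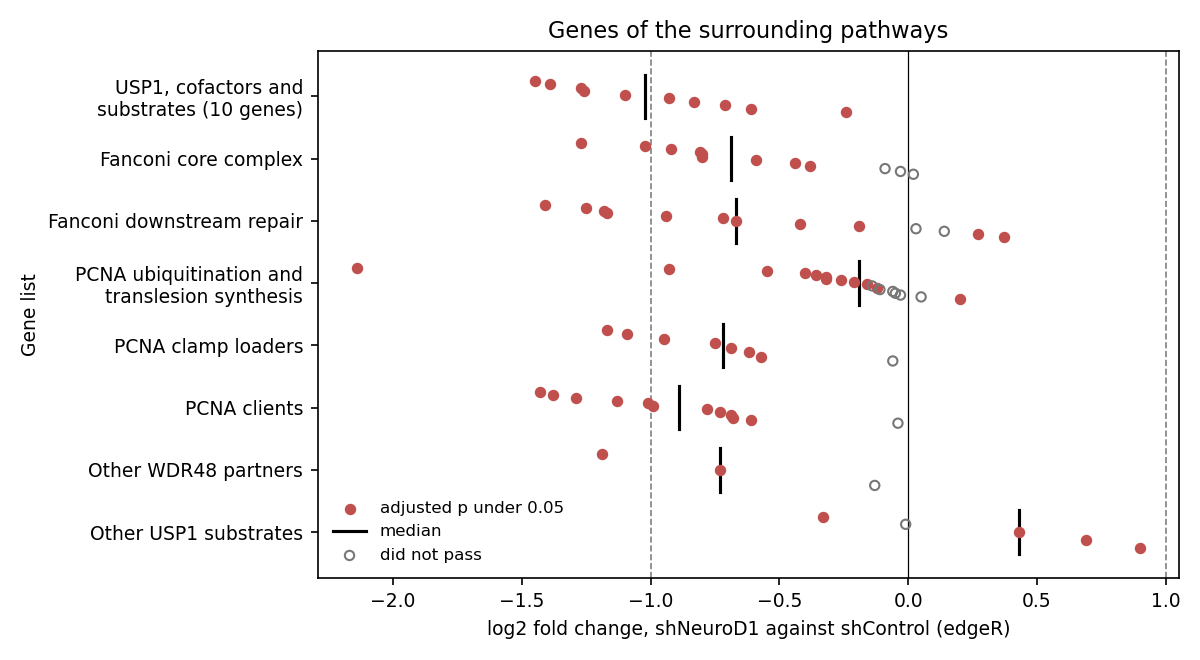
Log2 fold change, shNeuroD1 against shControl, of each gene in the 10-gene set and in 7 lists of related genes, with lists on the vertical axis. Filled points passed an adjusted p of 0.05, open points did not, black bars are medians and dashed lines mark -1 and 1, and the list of other USP1 substrates is the only one of the 8 with a median above 0.

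The fall of these genes stood beside that of S phase genes. USP1, PCNA and RAD51AP1 are in the S phase list of Seurat, and of its 40 other tested genes 38 were lower and 1 higher, with a median of -1.16. Their summed level was 5217 to 5259 CPM in shControl and 2448 to 2454 CPM in shNeuroD1. Of these 40 genes, 7 had a lower log2 fold change than FANCI, 9 than PCNA, 17 than USP1 and 38 than WDR48. The part of cell cycle distribution in the fall of USP1 was not tested.

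The genes whose pattern over the 4 libraries was most like that of USP1 were named by the smallest root mean square difference of centred log2 CPM, over 10560 genes whose mean reached 10 CPM. They were NCAPG, a condensin subunit (difference 0.0118), CENPI, a centromere protein (0.0142), KIF15, a mitotic kinesin (0.0191), ZWINT, a kinetochore protein (0.0195), and DHFRP1 (0.0197), a pseudogene whose reads may be shared with its parent gene. NCAPG had 159 and 158 CPM in shControl and 65.9 and 65.1 CPM in shNeuroD1. Of the other 9 genes of the set RAD51AP1 was nearest (0.0289), and WDR48 was farthest (0.511). With 2 groups of 2 libraries, this likeness is mostly a like fold change.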

How the data were processed

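RNA was measured in 4 IMR-32 libraries, grouped by sample title. The authors deposited raw read counts per gene, made per the submitters' processing notes with cutadapt 1.9.1, HISAT2 2.0.1 and HTSeq 0.6.1 on hg38, and FPKM values of transcript starts, ends and splicing events, whose tool is not given in the sources used here. FPKM tables list events above 0, and unlisted events were taken as 0.

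Counts were tested across all genes in edgeR 4.0.16 (R 4.3.3) by the two-sided quasi-likelihood F test after TMM scaling and filterByExpr (minimum count 10), and p-values were adjusted by Benjamini-Hochberg over 17537 genes. The SE is the log2 fold change divided by the square root of F. Starts and ends with a mean of at least 1 FPKM were tested with limma 3.58.1 on log2(FPKM + 1), which understates changes of low values. On simulated data edgeR recovered 98.5% of 200 genes changed 2-fold among 17537, with 1.99% of calls false. The changed genes were drawn from those with higher counts, and every gene was given the same dispersion. Far fewer genes changed than were called in the data, so these rates check the code and are not rates for the data. Libraries held 14665210 to 16482463 counts.

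The members and lists were chosen with earlier results of these data known. The S phase list is that of Seurat 5.3.0. 1 gene of the downstream repair list is not reported here and was left out of its counts. Named genes are the 10 members, NEUROD1, list genes past both thresholds or else the largest called change, and the 5 genes most like USP1. Other list genes, the cell type markers and the genes whose starts, pseudogenes or overlaps are given were named after their values were seen. Promoters are those of RefSeq. The order of levels uses CPM per kilobase, since no RAD18 start was listed and FPKM of PCNA starts and ends disagreed. Alternatives were RLE size factors, library size alone, no filter, genes whose mean reached 1 CPM, the Wald test of DESeq2 1.42.0, a replicate block, leaving out each library, limma on gene FPKM with pseudocounts of 1 and 0.1 and, chosen after seeing the data, FPKM summed over ends and glmTreat.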

Additional observations from a re-analysis of the deposited data

How the results depend on the processing

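All 10 genes kept a negative log2 fold change in each alternative that could be run for them, and all 10 calls held under the other scalings, filters, DESeq2 and the replicate block and without each library in turn. Of 96 values of single genes, 26 lost the call, all with glmTreat or in FPKM fits. Library size alone moved the median of all genes to 0.12, the median of the 10 genes to -0.91, and the list medians to -0.58 (Fanconi core), -0.55 (downstream), -0.07 (PCNA ubiquitination), -0.61 (clamp loaders), -0.78 (PCNA clients), -0.62 (WDR48 partners), 0.54 (other substrates) and -1.05 (S phase). FPKM fits gave 2, 1 and 3 genes lower and medians of -0.72, -0.77 and -0.92 for starts, starts with a pseudocount of 0.1 and ends, where only 9, 9 and 8 genes were tested, and glmTreat gave 4. USP1 was -1.13 with a pseudocount of 0.1 (adjusted p 0.0528). The S phase median was -1.18 without a filter and in DESeq2, with 0 genes higher.

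Leaving out 1 library gave -1.28 to -1.26 for USP1, and medians from -1.08 to -0.96 (the 10 genes), -0.75 to -0.61 (Fanconi core), -0.72 to -0.62 (downstream), -0.24 to -0.15 (PCNA ubiquitination, 7 to 9 lower), -0.77 to -0.69 (clamp loaders), -0.92 to -0.86 (clients), -0.79 to -0.68 (WDR48 partners), 0.32 to 0.53 (other substrates) and -1.19 to -1.12 (S phase, 0 to 1 higher). The lone library of a group was assumed to vary like the others.

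The USP1 end was -1.14 with a pseudocount of 0.1 and -1.17 to -1.06 without 1 library, with the call lost each time. Libraries with the same replicate number showed almost no correlation of their deviations from the group means (0.0158 over 17537 genes). Genes with few counts weighed as much as others in that check, so a small shared part could be missed. The replicate block left USP1 at -1.27 and the 10 calls as they were, and gave -1.11 for the USP1 end with an adjusted p of 0.197, and called 5000 genes lower against 4939.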
